A study of Mus musculus with 6 samples.

Results

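Medullary thymic epithelial cells (mTEC) depend on signals from thymocytes and other haematopoietic cells that arrive through receptors of the TNF receptor family. The genes described here are 10 components of that route, taken by name from the table of unadjusted counts: the receptors Tnfrsf11a (RANK), Cd40 and Ltbr (the lymphotoxin beta receptor), the decoy receptor Tnfrsf11b (osteoprotegerin), the adaptors Traf3 and Traf6, the kinase Map3k14 (NIK), and the NF-kB subunits Nfkb2, Relb and Nfkb1. They are 10 of 52636 gene rows, each symbol matched 1 row, and all 10 were among the 32496 genes that passed the filter on low counts.

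RANK, CD40 and the lymphotoxin beta receptor each recruit TRAF proteins. In resting cells TRAF3, together with TRAF2 and the cIAP ubiquitin ligases, holds NIK at a low level. Receptor engagement releases NIK, which leads to processing of the NFKB2 precursor to p52, and p52 with RELB enters the nucleus as the non-canonical arm of NF-kB. TRAF6 couples RANK and CD40 to the canonical arm, in which NFKB1 and RELA are held by inhibitors such as IkB alpha. In the thymic medulla this axis is known for its part in the maturation of mTEC that express Aire.

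The study sorted mTEC with low MHC class II from C57BL/6 mice of 6 weeks of age. According to the labels both populations bound the lectin UEA and were negative for CD80, Sca1 and CD63. Tuft-like cells were in addition positive for CD117 and CD66a, and non-tuft-like cells were negative for both, so the latter are defined only by what they lack within this gate. Each population was sequenced as 3 libraries with an ultra-low input protocol. Neither the labels nor the methods say whether the libraries of a population came from separate mice, so p-values measure the spread between these libraries, which may be technical.

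Gene counts summed to between 20097617 and 48369825 in a library, so a count of 0 allows a level of up to 0.0639 to 0.124 CPM (3 counts, counting error only). Levels are TMM-normalized CPM (gene counts per library total, scaled between libraries). A log2 fold change below 0 means a lower level in tuft-like mTEC. A gene was called at a false discovery rate (FDR) under 0.05 in edgeR's quasi-likelihood test over all tested genes. The 8 tuft cell markers examined went with the labels, all of them called higher in tuft-like mTEC. Dclk1, a kinase used to stain tuft cells, had a mean of 28.5 ± 7.27 CPM in the non-tuft-like libraries and of 1584 ± 289.6 CPM in the others (SD, n = 3). The sort marker Ceacam1 (CD66a) stood at 12 ± 5.79 and 209 ± 55.4 CPM. For Kit (CD117) the levels were 167 ± 23.2 and 395 ± 82.1 CPM, which did not pass the test (edgeR FDR 0.0678) but did in 9 of 15 alternative settings. Of 6 epithelial markers, Krt8 was the highest, at 2465 ± 478 and 3924 ± 1507 CPM, and Epcam, Cdh1 and Krt8 were not called. In replicates 1, 2 and 3 Epcam had 230, 771 and 930 CPM in non-tuft-like mTEC. The tuft-like replicates had 248, 784 and 1041 CPM, so replicate 1 was the lowest in both populations. Krt14 (321 ± 49.6 and 28.5 ± 10.1 CPM, edgeR FDR 0.000885) and Foxn1 (151 ± 12.4 and 13.5 ± 3.24 CPM, edgeR FDR 0.00043) were called lower in tuft-like mTEC, and Krt5 had 338 ± 79.6 and 41.6 ± 51.9 CPM (edgeR FDR 0.0985).

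Of the 10 genes, 2 were called, Cd40 and Tnfrsf11b, both lower in tuft-like mTEC. Over all tested genes 2.11% were called, 0.951% lower and 1.16% higher. Among genes that averaged 10 CPM or more, as all 10 did, 2.63% were called lower. An unadjusted p under 0.05 was found in 5 of the 10, against 8.97% of all tested genes and 21.8% of those that averaged 10 CPM or more. A log2 fold change below 0 was found for 9 of the 10, against 49% of all tested genes, and the median was -0.66 against 0.02 over all tested genes. In 4 of the 10 (Cd40, Tnfrsf11b, Tnfrsf11a and Relb) every tuft-like library lay below every non-tuft-like library, against 8.85% of all tested genes and 15.9% of those that averaged 10 CPM or more (16% and 28.2% without overlap in either direction). None of the 10 was called higher by edgeR's quasi-likelihood test, and 0 by DESeq2 or limma voom. Both called genes stood on the receptor side of the axis. Ltbr, both TRAF adaptors, Map3k14, Nfkb2 and Nfkb1 had overlapping libraries. The libraries of the receptor gene Tnfrsf11a and of the subunit gene Relb did not overlap, but neither gene was called.

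**Figure D1:**
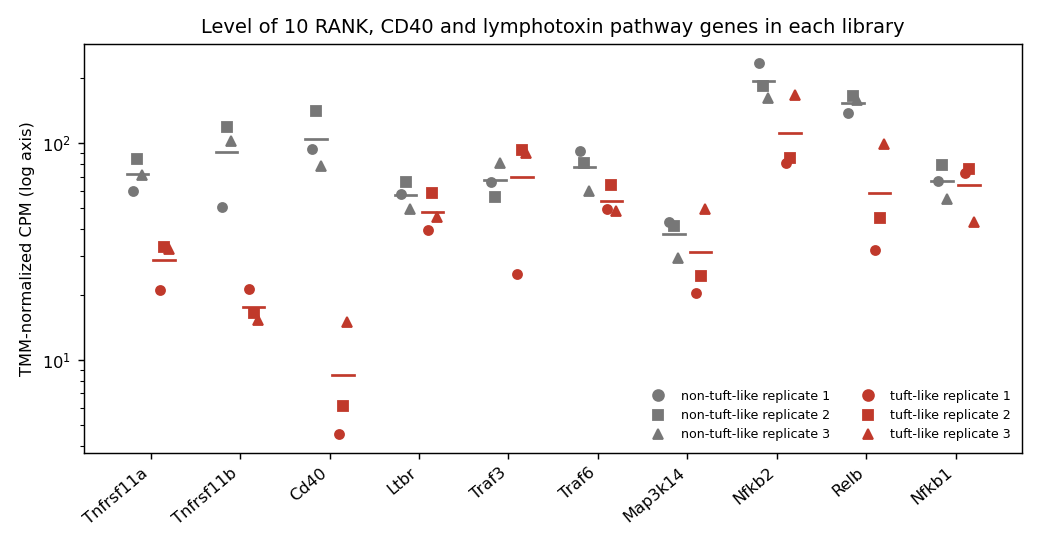
TMM-normalized CPM (log axis) of the 10 genes in each of the 6 libraries, with grey points for non-tuft-like and red points for tuft-like mTEC, the replicate number as the marker shape and horizontal bars for the group means. Cd40 and Tnfrsf11b are separated most widely, and tuft-like replicate 3 stands above the other tuft-like libraries for Cd40, Map3k14, Nfkb2 and Relb.

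Cd40 encodes the receptor for CD40 ligand, which activated T cells display. The gene (ENSMUSG00000017652, mm10 chromosome 2, 165055627 to 165072948, plus strand, 3406 exonic bp) had 94.0, 141 and 78.7 CPM across replicates 1, 2 and 3 of the non-tuft-like population. In the tuft-like replicates 1, 2 and 3 it had 4.55, 6.11 and 14.9 CPM. All tuft-like libraries were far below the lowest non-tuft-like library, and among them replicate 3 was the highest. The non-tuft-like mean was 105 ± 32.4 CPM and the tuft-like mean 8.53 ± 5.60 CPM (SD, n = 3), or 8.16% of it. This is a log2 fold change of -3.61 (standard error 0.49, 95% interval -4.70 to -2.52, edgeR FDR 0.00352). Without tuft-like replicate 3 it was -4.33. The level in tuft-like replicates 1 and 2 was within the range of background reads. Scaled by exon length, the mean over 1134 olfactory receptor genes would account for 47.0% of the Cd40 reads in tuft-like replicate 1, 20.3% in replicate 2 and 1.60% in replicate 3. In a bulk sample fewer cells that express a gene and less RNA per cell cannot be told apart, here or in the results that follow.

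Tnfrsf11b encodes osteoprotegerin, a secreted decoy that binds RANK ligand and keeps it from RANK. The gene (ENSMUSG00000063727, chromosome 15, 54250619 to 54278484, minus strand, 2818 exonic bp) had 50.5, 119 and 103 CPM in the non-tuft-like libraries and 21.1, 16.4 and 15.3 CPM in the tuft-like libraries. The tuft-like libraries were close to each other, whereas non-tuft-like replicate 1 was lower than the other two of its population. The means were 90.6 ± 35.7 and 17.6 ± 3.11 CPM (SD, n = 3), a 5.15-fold higher level in non-tuft-like mTEC. On the log2 scale the fold change was -2.36 (standard error 0.37, 95% interval -3.19 to -1.54, edgeR FDR 0.00814). Cd40 and Tnfrsf11b were called in each of the 15 alternative settings, including the omission of each library in turn (edgeR FDR up to 0.0148 for Cd40 and 0.0424 for Tnfrsf11b).

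Tnfrsf11a encodes RANK itself. The gene (ENSMUSG00000026321, chromosome 1, 105780718 to 105847981, plus strand, 5985 exonic bp) had 60.2, 84.6 and 71.3 CPM in the non-tuft-like libraries and 21, 33.1 and 32.6 CPM in the tuft-like libraries. The populations did not overlap, and the means of 72.0 ± 12.2 and 28.9 ± 6.86 CPM (SD, n = 3) differed by 2.49-fold. The log2 fold change of -1.32 (95% interval -2.005 to -0.63) did not pass the threshold (edgeR FDR 0.0640). It passed in 6 of 15 alternative settings, among them RLE scaling, DESeq2 and background subtraction, and in none that left out a library (edgeR FDR 0.0625 to 0.385).

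Ltbr encodes the receptor for membrane lymphotoxin and for LIGHT, and it signals through the same NIK route. The gene (ENSMUSG00000030339, chromosome 6, 125306571 to 125313885, minus strand, 2354 exonic bp) had 57.9, 66.1 and 49.5 CPM in the non-tuft-like and 39.9, 58.6 and 45.8 CPM in the tuft-like libraries. These ranges overlapped, with means of 57.8 ± 8.28 and 48.1 ± 9.54 CPM (SD, n = 3). The log2 fold change was -0.27 with a 95% interval from -0.90 to 0.37 and did not pass edgeR's test, and a decrease as large as that of Cd40 or Tnfrsf11b lay outside that interval.

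**Figure D2:**
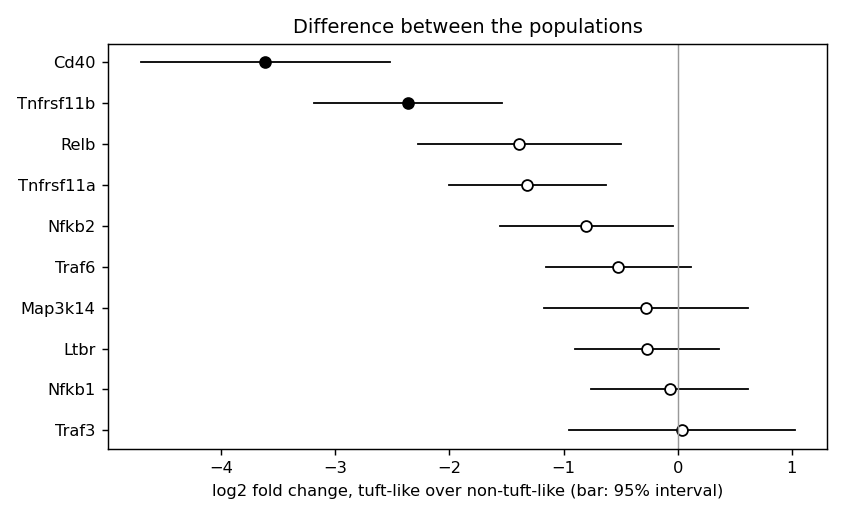
Log2 fold change of each gene (points) with its 95% interval (bars) from edgeR's quasi-likelihood fit, filled points marking the genes called at an FDR under 0.05. Cd40 at -3.61 and Tnfrsf11b at -2.36 are filled, and the intervals of Relb, Tnfrsf11a and Nfkb2 lie below 0 without passing after adjustment.

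Of the TRAF adaptors, Traf3 (ENSMUSG00000021277, chromosome 12, 111166370 to 111267153, plus strand) restrains NIK and Traf6 (ENSMUSG00000027164, chromosome 2, 101678429 to 101701669, plus strand) couples receptors to the canonical arm. Traf3 had 66.0, 56.4 and 81.1 CPM in the non-tuft-like libraries and 24.8, 93.3 and 90.3 CPM in the tuft-like libraries. Tuft-like replicate 1 was the lowest of the 6 libraries and the other two were the highest, so the log2 fold change of 0.04 had a wide 95% interval (-0.95 to 1.03), and its sign turned in 8 of 15 alternative settings. Traf6 had 92.2, 80.8 and 60.1 CPM in the non-tuft-like and 49.7, 64.1 and 48.6 CPM in the tuft-like libraries. The ranges met between 60.1 and 64.1 CPM, and the fitted difference was -0.52 on the log2 scale (95% interval -1.16 to 0.11, edgeR FDR 0.788).

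Map3k14 (ENSMUSG00000020941, chromosome 11, 103219762 to 103267472, minus strand), the kinase that all 3 signalling receptors use to open the non-canonical arm, had 43.4, 41.5 and 29.6 CPM in the non-tuft-like libraries. In the tuft-like libraries it had 20.4, 24.4 and 49.4 CPM, which places replicate 3 above every other library and replicates 1 and 2 below all non-tuft-like libraries. Its log2 fold change was -0.28, with a 95% interval from -1.18 to 0.61. Without tuft-like replicate 3 it was -0.81 (edgeR FDR 0.359), and without tuft-like replicate 1 it was -0.04. An exonic stretch of 135 bp (2.06% of 6550 bp) is shared with 1700028N14Rik, so a small share of its reads is uncertain.

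Relb (ENSMUSG00000002983, chromosome 7, 19606217 to 19629438, minus strand), which encodes the partner of p52 in the non-canonical arm, had 138, 165 and 158 CPM in the non-tuft-like libraries and 31.9, 45.1 and 98.9 CPM in the tuft-like libraries. No tuft-like library reached the non-tuft-like range, and replicate 3 stood between the other tuft-like libraries and that range. The means were 153 ± 14.1 and 58.6 ± 35.4 CPM (SD, n = 3). The log2 fold change of -1.39 (95% interval -2.27 to -0.50) did not pass after adjustment (edgeR FDR 0.149). It passed in 7 of 15 alternative settings, and leaving out tuft-like replicate 3 gave -2.03 (edgeR FDR 0.00735).

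Nfkb2 (ENSMUSG00000025225, chromosome 19, 46304320 to 46312385, plus strand), which encodes the p52 precursor, had 235, 183 and 161 CPM in the non-tuft-like libraries and 80.8, 85.6 and 166 CPM in the tuft-like libraries. Tuft-like replicate 3 lay within the non-tuft-like range, whereas the other two lay well below it. The fitted log2 fold change was -0.80 (95% interval -1.56 to -0.04, edgeR FDR 0.498). A stretch of 299 of its 4584 exonic bp overlaps Psd on the other strand, where reads cannot be told apart if counted without strand, a setting not given in the sources used here. Nfkb1 (ENSMUSG00000028163, chromosome 3, 135584655 to 135691547, minus strand), the canonical counterpart, had 67.1, 79.4 and 55.0 CPM in the non-tuft-like and 72.9, 75.7 and 43.2 CPM in the tuft-like libraries. Its libraries overlapped throughout, with a log2 fold change of -0.07 (95% interval -0.76 to 0.62) whose sign turned in 2 of 15 alternative settings.

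Genes of NF-kB subunits and inhibitors are themselves known targets of NF-kB, so the promoter windows of the axis were searched for the 10-base kB consensus on both strands. RefSeq (GRCm38.p6) windows from 250 bases before to 50 after a start were at hand for 6 of the 10 genes and gave a match for Nfkb2 and Traf3. A match was present for 9.55% of 27025 genes with a window, for 15 of 47 other pathway genes (31.9%), and for none of Tnfrsf11a, Ltbr, Traf6 and Map3k14. The other pathway genes include inhibitor genes and genes listed as known NF-kB targets, so their share depends on that choice and is no test. The stretches of 30 bases that hold the matches upstream of a RefSeq start of Nfkb2 (chr19:46304688-46304717 and chr19:46304707-46304736, which overlap and lie inside the gene as GENCODE gives it) and of the Traf3 start (chr12:111166340-111166369) are shown 5′ to 3′ on the plus strand, with the bases of the matches in capitals. They are shown because Nfkb2 and Traf3 are the genes of the axis in which the sequence was found.
Nfkb2, bases -49 to -20: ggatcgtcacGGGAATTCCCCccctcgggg
Nfkb2, bases -30 to -1: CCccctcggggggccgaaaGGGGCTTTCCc
Traf3, bases -30 to -1: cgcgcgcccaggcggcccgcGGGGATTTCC
In the first line matches on both strands overlap, and the bases in capitals at the start of the second line belong to those matches. Other RefSeq starts of Nfkb2 have matches too, which are not shown. A match describes the sequence, and the counts do not show whether a factor binds there.

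Divided by exonic length, which allows levels of different genes to be set side by side, the order within non-tuft-like mTEC ran from Nfkb2 (42.1 ± 8.31 CPM per kb) and Relb (39.5 ± 3.63) through Tnfrsf11b (32.1 ± 12.7), Cd40 (30.7 ± 9.53) and Ltbr (24.6 ± 3.52) down to Tnfrsf11a (12 ± 2.04). Traf6, Traf3, Map3k14 and Nfkb1 followed, between 9.86 and 5.57 CPM per kb. Among the neighbours in this order, Ltbr and Tnfrsf11a differed by more than the larger SD, as did Tnfrsf11a and Traf6 and Traf3 and Map3k14, and in the pair Tnfrsf11a and Traf6 the libraries still overlapped. In tuft-like mTEC the order was headed by Nfkb2 (24.2 ± 10.4 CPM per kb) and Ltbr (20.4 ± 4.05), while Cd40 was last (2.50 ± 1.65). There no pair of neighbours differed by more than the larger SD. The exonic length is that of all annotated transcripts together, so genes with long minor transcripts are placed too low.

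Ratios between genes inside a library do not depend on the scaling between libraries. The ratio of Cd40 to Tnfrsf11a (reads per exonic kb) was 2.74, 2.93 and 1.94 in the non-tuft-like and 0.383, 0.325 and 0.806 in the tuft-like libraries. The populations did not overlap, and the difference in mean log2 ratio was -2.43. The ratio of Ltbr to Tnfrsf11a was 2.45, 1.99 and 1.77 in the non-tuft-like and 4.84, 4.50 and 3.57 in the tuft-like libraries, a difference of 1.06 on the log2 scale, opposite in sign. For Relb to Rela, the partner subunits of the non-canonical and the canonical arm, the ratio was 0.909, 1.11 and 1.67 against 0.306, 0.298 and 0.730. That difference was -1.56 on the log2 scale, again without overlap. Each of these 3 ratios gave an exact permutation p of 0.10 (two-sided), which is the lowest value possible with 3 libraries in each population, and 0.20 after Benjamini-Hochberg adjustment over the 6 ratios compared.

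The other 3 ratios overlapped between the populations. Tnfrsf11b to Tnfrsf11a, decoy to receptor, was 1.78, 2.98 and 3.06 in the non-tuft-like libraries and 2.14, 1.05 and 0.996 in the tuft-like libraries (exact permutation p 0.20, adjusted 0.30). Nfkb2 to Nfkb1 was 9.22, 6.07 and 7.69 against 2.91, 2.98 and 10.1 (exact permutation p 0.40, adjusted 0.48), so that tuft-like replicate 3 had the highest value of all and the other tuft-like libraries the lowest. Map3k14 to Traf3 was 0.738, 0.825 and 0.410 against 0.926, 0.293 and 0.613 (exact permutation p 0.70, adjusted 0.70).

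**Figure D3:**
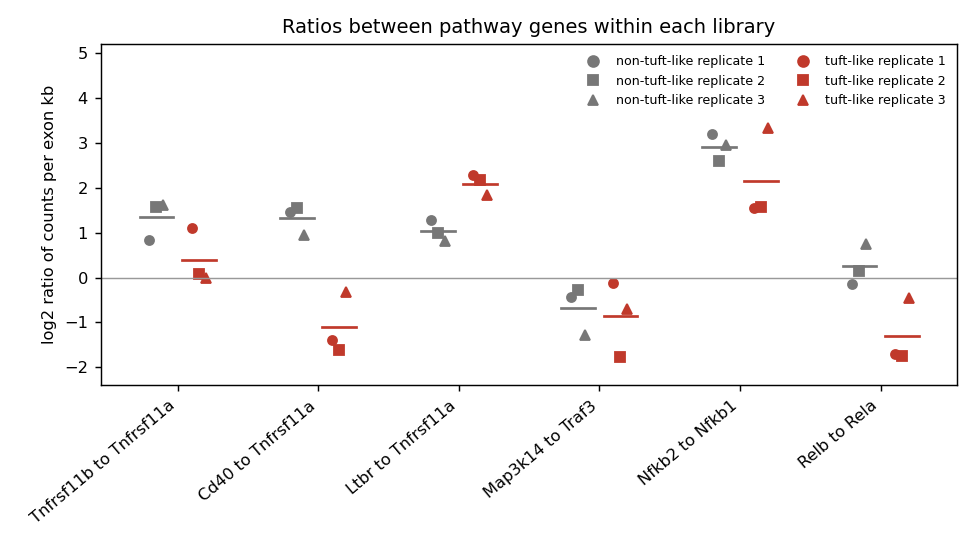
Log2 ratio of reads per exonic kb between pairs of genes in each library, with grey points for non-tuft-like and red points for tuft-like mTEC, the replicate number as the marker shape and bars for group means. The populations are apart for Cd40 to Tnfrsf11a, Ltbr to Tnfrsf11a and Relb to Rela, and tuft-like replicate 3 has the highest Nfkb2 to Nfkb1 ratio.

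A list of 56 further genes of the pathway was read from the same fit, of which 55 were tested and Lta was not. Quasi-likelihood testing called 7 of them, 6 lower and 1 higher in tuft-like mTEC, where 2.11% of all tested genes were called. Their median log2 fold change was -0.44. The lists were drawn up with earlier results of these data known, so the counts are a description.

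Ligands of the axis are made chiefly by haematopoietic cells, and Tnfsf11, Lta and Cd40lg were near background in most libraries. Of the 4 tested 0 were called by edgeR's quasi-likelihood test, DESeq2 or limma voom, and 0 had an unadjusted p under 0.05. The highest per length were Ltb, a subunit of membrane lymphotoxin, with means of 28.0 ± 12.9 and 21.3 ± 6.98 CPM in non-tuft-like and tuft-like mTEC, and Tnfsf14, which encodes LIGHT, at 5.32 ± 4.44 and 8.15 ± 1.86 CPM (SD, n = 3). Per exonic kb Ltb stood at 18.5 and 14.0 CPM, above Tnfrsf11a, Traf6, Traf3, Map3k14 and Nfkb1 in both populations. Tnfsf11, which encodes RANK ligand, had between 0 and 4.97 CPM in every library, and Cd40lg, which encodes CD40 ligand, between 0 and 2.11 CPM. Compared with 99% of the olfactory receptor genes (reads per exonic kb), Tnfsf11 and Lta were higher in 1 library each and Cd40lg in 0. These genes were named after their values were seen. Of 10 other TNF receptors, 0 were called by edgeR's quasi-likelihood test, 1 by DESeq2 (Fas) and 0 by limma voom. An unadjusted edgeR p under 0.05 was found in 2, against 8.97% of all tested genes and 21.8% of those that averaged 10 CPM or more. The median log2 fold change of these receptors was -0.74, against 0.02 over all tested genes. Tnfrsf21 (DR6) and Tnfrsf1a (TNF receptor 1), the highest per length, had log2 fold changes of -0.64 (edgeR FDR 0.788) and -0.83 (edgeR FDR 0.262).

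Where 0.951% of all tested genes were called lower, 1 of 10 adaptors and cIAP ligases was, Birc3 (cIAP2), itself a known NF-kB target. It had 207, 192 and 178 CPM in the non-tuft-like and 80.1, 79.7 and 69.4 CPM in the tuft-like libraries, with little spread in either population. It fell by 1.33 on the log2 scale (standard error 0.25, FDR 0.0237 by edgeR). The call was lost when replicate 1 or 2 of the non-tuft-like or replicate 2 of the tuft-like population was left out (FDR up to 0.164 by edgeR) and with the replicate block (0.0791). Its neighbour Birc2 (cIAP1) differed by -0.998 on the log2 scale, which did not pass (edgeR FDR 0.149) but did in 5 of 15 alternative settings, DESeq2 and the omission of tuft-like replicate 3 among them (edgeR FDR 0.0441 for the latter). Of the 9 IKK and TAK1 kinase genes 0 were called by edgeR's quasi-likelihood test, DESeq2 or limma voom, and 0 had an unadjusted p under 0.05. Chuk, which encodes the IKK alpha that NIK activates, had 50.5, 90.9 and 105 CPM against 68.3, 116 and 125 CPM in the tuft-like libraries, with overlap and a log2 fold change of 0.33. Tbk1, a kinase related to the IKK enzymes, differed by -0.66 (edgeR FDR 0.692).

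The subunits outside the 10 genes, both of the canonical arm, had nearly equal means. Rela had means of 104 ± 25.3 and 103 ± 19.0 CPM and Rel of 34.9 ± 3.25 and 34.8 ± 15.3 CPM (SD, n = 3). The 95% interval of the log2 fold change was -0.66 to 0.64 for Rela and -0.83 to 0.83 for Rel. Of 10 inhibitor genes 1 was called, against 2.11% of all tested genes. This was Nfkbie (IkB epsilon), with 125, 112 and 112 CPM in the non-tuft-like and 28.0, 26.8 and 59.7 CPM in the tuft-like libraries. The tuft-like libraries were all below the others, and the level fell by 1.61 on the log2 scale (edgeR FDR 0.0491). That call was lost without any 1 library other than tuft-like replicate 3 (edgeR FDR up to 0.249). Nfkbia (IkB alpha), the inhibitor gene with the highest level per length, had 886, 737 and 780.0 CPM against 281, 308 and 544 CPM, again with replicate 3 the highest of the tuft-like libraries. Its log2 fold change of -1.09 did not pass (edgeR FDR 0.217) but did in 6 of 15 alternative settings, among them DESeq2, limma voom and the omission of tuft-like replicate 3 (edgeR FDR 0.0166 for the latter). Tnip1, which encodes a partner of A20, had a log2 fold change of -0.12. Tnfaip3, which encodes A20, a deubiquitinase that ends canonical signalling, was chosen after its values were seen. It had 112, 74.5 and 93.2 CPM in the non-tuft-like and 162, 267 and 296 CPM in the tuft-like libraries. Every tuft-like library was above every non-tuft-like library, the opposite order to Nfkbia and Nfkbie, and the log2 fold change of 1.37 did not pass (edgeR FDR 0.0605), although it passed in 9 of 15 alternative settings.

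**Figure D4:**
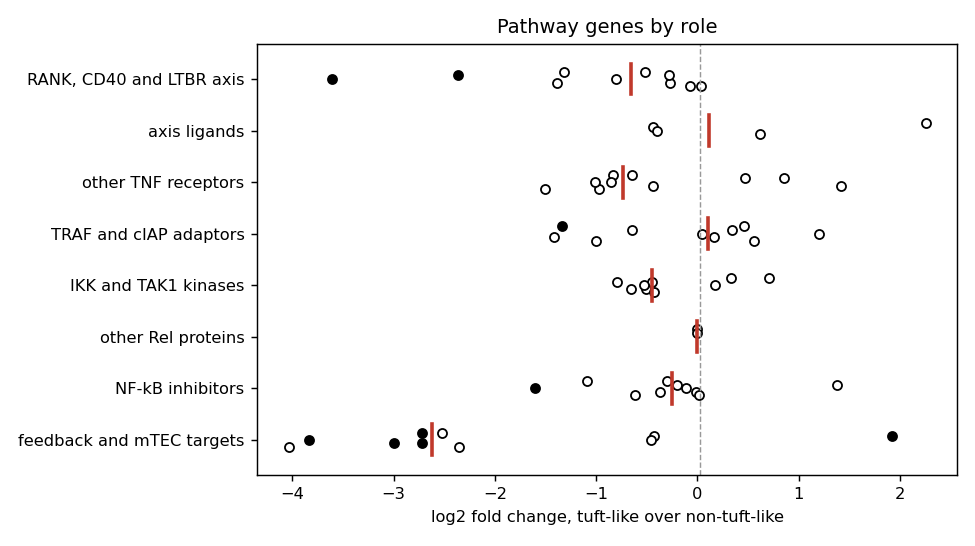
Log2 fold changes (tuft-like over non-tuft-like) of the 10 genes of the axis and of 55 tested pathway genes grouped by role, with filled points for genes called at an FDR under 0.05, red bars for list medians and a dashed line for the median of all tested genes. Filled points stand on the left for Cd40, Tnfrsf11b, Birc3, Nfkbie and 4 target genes, and Spib is the filled point on the right.

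Of 10 genes known as NF-kB feedback targets or as regulators and products of mTEC, 4 were called lower and 1 higher. Over all tested genes 0.951% were called lower and 1.16% higher. Icam1, an adhesion molecule induced by NF-kB, averaged 383 ± 51.6 CPM and 57.9 ± 6.40 CPM in non-tuft-like and tuft-like mTEC (SD, n = 3), a difference of -2.72 on the log2 scale (edgeR FDR 0.000886). Of its exonic bases 11.7% overlap Gm47079 on the other strand. Cxcl10, a chemokine induced by interferon and NF-kB, stood at 108 ± 20.0 and 13.6 ± 4.84 CPM (log2 fold change -2.99, edgeR FDR 0.00186). Aire, the regulator of promiscuous expression that RANK signalling induces, and Fezf2, another such regulator, had log2 fold changes of -3.83 (edgeR FDR 0.000334) and -2.72 (edgeR FDR 0.000886). Spib, an ETS factor known to be induced by RANK signalling and to raise Tnfrsf11b, went the other way from Tnfrsf11b. It had 199.8, 231 and 212 CPM in the non-tuft-like and 591, 783 and 1051 CPM in the tuft-like libraries, with a log2 fold change of 1.92 (edgeR FDR 0.0128). The call was lost with the replicate block (edgeR FDR 0.0793) and when replicate 1 or 2 of the non-tuft-like or replicate 2 of the tuft-like population was omitted (edgeR FDR up to 0.112). Icam1, Cxcl10, Aire and Fezf2 kept theirs in all 15 alternative settings.

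Markers of mature mTEC other than Cd86 were lower in the same libraries as Cd40 and Tnfrsf11b. The summed level of 8 such markers ranged from 14358 to 17880 CPM in non-tuft-like and from 2271 to 5001 CPM in tuft-like libraries. This sum was highest in replicate 3 among the tuft-like libraries, as were Cd74, H2-Ab1, H2-Aa, Ciita and Fezf2. Aire had 18.8 CPM in that replicate, against 19.3 and 23.4 CPM in tuft-like replicates 1 and 2. Cd80 had 0.138 CPM against 3.84 and 3.92 CPM, and Cd86 had 0 against 9.71 and 4.68 CPM. These 3 markers and Tnfrsf11b were thus lowest in tuft-like replicate 3. Of the 8 markers 6 were called lower, against 0.951% of all tested genes and 2.63% of those that averaged 10 CPM or more. Cd80 and Cd86 were not called. The sum includes the class II chaperone Cd74, at 8821 ± 1020 and 1727 ± 704 CPM (SD, n = 3), and both sorts were gated on low MHC class II. Aire, Fezf2 and Cd80 are in this list as well as in that of the target and mTEC genes. Tuft-like replicate 3 had the highest level of the tuft-like libraries for 4 of the 10 genes, for 30 of the 56 pathway genes and for 9877 of the 32496 tested genes. The part of the share of mature mTEC in each sort in the lower Cd40 and Tnfrsf11b was not tested.

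Cd40 and Relb are also expressed by B cells, dendritic cells and macrophages. The summed level of 9 dendritic cell and macrophage markers ranged from 222 to 359 CPM in non-tuft-like and from 135 to 202 CPM in tuft-like libraries. Most of it was Lyz2 (223 ± 82.2 and 145 ± 29.6 CPM), Cd68 was called lower (log2 fold change -3.30, edgeR FDR 0.00280), and the other 7 had group means of at most 14.1 CPM, that of Csf1r in non-tuft-like mTEC. The 6 B cell markers summed to between 27.8 and 34.5 CPM in non-tuft-like and between 85.1 and 124 CPM in tuft-like libraries. The excess was largely Cd79b (8.42 ± 3.07 and 77.6 ± 27.3 CPM), whereas the defining marker Cd79a had group means of at most 1.15 CPM. The 9 thymocyte markers summed to between 16.8 and 70.9 CPM over the 6 libraries, with overlap, and the highest per length was Lck. Tnfrsf11b is also made by fibroblasts and endothelial cells. The 7 fibroblast markers summed to between 48.4 and 76.8 CPM in non-tuft-like and between 38.8 and 197 CPM in tuft-like libraries, with Dcn the highest, and the 6 endothelial markers to between 37.8 and 63.7 CPM and between 173 and 345 CPM. Tek was the highest of these (23.4 ± 12.7 and 179 ± 42.4 CPM), and Pecam1 had 106 CPM in tuft-like replicate 1 and at most 8.99 CPM in every other library. The mean endothelial sum of 249 CPM in tuft-like libraries was largely Tek, and Cdh5, Cldn5 and Emcn had group means of at most 5.35 CPM. In the study's gating scheme tuft-like mTEC lie among EpCAM1+ cells without CD45. How far that gate removed cells of these other types, and their part in the results, was not tested.

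The share of reads that HTSeq gave to no feature, which includes reads in introns, ran from 19.7% in tuft-like replicate 3 to 61.6% in tuft-like replicate 1. Compared with 99% of the olfactory receptor genes (reads per exonic kb), 9 of the 10 genes were higher in all 6 libraries and Cd40 was in 4, the exceptions being tuft-like replicates 1 and 2. With the background subtracted, the log2 fold changes of Cd40 and Tnfrsf11b remained called and those of Tnfrsf11a and Relb were called as well.

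Across the 6 libraries, the genes whose log2 levels ran most nearly in parallel with Cd40 were Il20rb, Sbsn and Asprv1, with root mean square differences of 0.265 to 0.276 on the log2 scale among 11592 genes of at least 10 CPM on average. Those nearest to Tnfrsf11b were Lgals1, Hsd17b14 and Arhgef4, at 0.198 to 0.234, and those nearest to Tnfrsf11a were Gfra4, H2-Eb2 and Itgb4, at 0.106 to 0.126. These distances describe 6 libraries in 2 populations and carry no test.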

How the data were processed

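The authors used Trimmomatic 0.36 to trim reads, STAR 2.7.3a to align them to mm10 and HTSeq, with its intersection-nonempty option, to count them on genes. The deposited values are whole read counts per gene without normalization, in 52636 gene rows, 92 ERCC rows and 5 rows of unassigned reads. The annotation release and strand setting are not given in the sources used here. Symbols and exonic lengths came from GENCODE M21 (mm10), which named 99.56% of gene rows, and promoters from RefSeq.

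Groups came from the sample titles. In R 4.3.3, edgeR 4.0.16 was used with filterByExpr (minimum count 10, minimum total 15), TMM, and the quasi-likelihood F-test without covariates, with Benjamini-Hochberg adjustment over all tested genes. Standard errors are the absolute log2 fold change over the square root of F, and 95% intervals use the fit's degrees of freedom. The fit was tested on simulated data. Ratios added 0.5 counts to each gene and were compared by exact permutation tests. Alternatives used limma 3.58.1, DESeq2 1.42.0, RLE factors, library size only, the likelihood ratio test, 2 filters, background subtraction, a replicate block and the omission of each library. The genes, lists and tests were chosen with earlier results of these data known. Named were the 10 genes, Kit, Ceacam1 and Dclk1 as checks, called pathway genes, the 2 of highest level per length in each list, the top gene of each marker list, and the 3 nearest genes by profile for the 3 genes of smallest p. Other genes named were chosen after their values were seen. The unassigned-read rows were left out of library sizes and tests. Values of 1 marker gene are not reported here.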

Additional observations from a re-analysis of the deposited data

How the results depend on the processing

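Over the 15 alternative settings Cd40 and Tnfrsf11b remained called lower. The number of called genes among the 10, 2 with edgeR's quasi-likelihood test, rose to 4 with library size only, DESeq2, the likelihood ratio test or background subtraction, the additions being Tnfrsf11a and Relb, and lay between 2 and 3 without 1 library. Of the 56 pathway genes 7 were called, 11 with DESeq2, and between 4 and 9 without 1 library (4 when non-tuft-like replicate 1, non-tuft-like replicate 2 or tuft-like replicate 2 was omitted). The number of called genes in the whole table, 687, was 1045 with library size only, 1904 with DESeq2, 1236 with the likelihood ratio test, 1127 without a filter and 1055 after background subtraction, and between 376 and 922 without 1 library, the lowest without tuft-like replicate 2. Without non-tuft-like replicate 2 it was 379. Of the 922 called without tuft-like replicate 3, 33.6% were higher in tuft-like mTEC, against 55.0% with all libraries. The common biological coefficient of variation, taken over all tested genes, was 1.10. Among the 10 genes the standard errors of the log2 fold change ran from 0.28 to 0.49, so small differences in them were not detectable.

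Same-numbered libraries had correlations of deviations from their group means of -0.156, -0.061 and -0.326, and 0 of 6 libraries correlated best with their own number, so the numbers were not taken as pairs. With the replicate block 737 genes were called in all, 2 of the 10 genes (Cd40 and Tnfrsf11b) and 5 of the 56 pathway genes.

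Signs turned for genes whose 95% intervals include 0. Traf3 was -0.10 with library size only, -0.0796 with voom, -0.0653 with the filter of 1 CPM, -0.16 with the replicate block, -0.0403 after background subtraction, and between -0.24 and 0.44 without 1 library. Nfkb1 ran from -0.22 to 0.11 without 1 library. Rela was 0.0221 with RLE factors and with DESeq2, 0.0235 after background subtraction, 0.0095 with voom, 0.0064 with the replicate block and between -0.23 and 0.13 without 1 library. Rel was 0.0145 with RLE factors, 0.0147 with DESeq2 and between -0.45 and 0.23 without 1 library, Tnip1 between -0.46 and 0.0632, and Dcn -0.25 with voom, -0.0949 with the replicate block and between -0.14 and 0.66. Tnfsf11, with few reads and a value of 2.25 (95% interval -2.58 to 7.09), was -0.18 with voom and ran from -1.55 to 3.17 without 1 library. The log2 ratio of Map3k14 to Traf3 differed by between -0.57 and 0.26 without 1 library. The cause was not tested for any of these.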
